A study of Mus musculus with 24 samples.

Results

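The genes described here are 10 members of the detoxification and antioxidant system: the cytochrome P450 Cyp2e1, the glutathione transferases Gsta3, Gsta4, Gstm1, Gstm2 and Gstt1, and the NRF2 targets Nqo1, Gclc, Gclm and Hmox1. They were taken by symbol, with every probe that the platform annotation gives to them, and are 10 of 19057 named genes on the array. Their levels were read in epididymal fat of male C57BL6/J mice on 24 Illumina bead arrays, 1 array per sample, with 8 arrays in each of 3 groups. DR mice were on 40% dietary restriction, Rapa mice received rapamycin, an inhibitor of the kinase complex mTORC1, at 14 ppm, and AL mice ate ad libitum. All were 8 months old, and per the design text each regime started at 2 months of age and ran for 6 months. Whether every sample is a separate mouse is not stated in the labels, and the p-values therefore reflect only the variation among these arrays, which may be technical.

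Cyp2e1 is a membrane enzyme that oxidises ethanol, acetone and other small molecules, and it is best known from liver, where fasting and ketone bodies raise its protein. Glutathione transferases join the tripeptide glutathione to electrophiles, among them the lipid aldehydes that arise when fat is peroxidised. The transcription factor NRF2, held back by KEAP1 until oxidants or electrophiles release it, binds antioxidant response elements in many of these genes. Gclc and Gclm encode the catalytic and modifier subunits of the enzyme that starts glutathione synthesis, Nqo1 reduces quinones, and Hmox1 opens the haem ring.

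The 10 genes have 15 probes, of which 12 were detected (detection p under 0.05) on at least 8 arrays and entered the fit. They represent 9 members, since the single Gclc probe did not pass. Levels are log2 intensities after background correction and quantile normalization, given with SD over the 8 arrays of a group, and levels of different probes cannot be compared with each other. A gene with several probes was read from its brightest one. A change was called at an adjusted p under 0.05 in a limma fit of all 24 arrays, with Benjamini-Hochberg adjustment across the 17165 probes kept.

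Some facts of the arrays bear on every result. The labels name epididymal fat as the source but liver as the tissue. The 15 adipocyte markers on the array were all kept, and 13 of them, Lep and Adipoq included, were detected on all 24 arrays. Of 19 hepatocyte markers, 4 were kept, and Alb, Apob, Fgb, Tat and Hpd were detected on no array. Markers of epididymis and testis were uneven: the median level of the 11 kept ones, the marker score, was 8.22 ± 2.14 in DR, 6.41 ± 2.39 in Rapa and 5.09 ± 0.49 in AL (SD, n = 8 each), and it lay above 6 on 10 arrays. Leaving those arrays out keeps 2 DR, 5 Rapa and 7 AL arrays. The arrays detected between 13012 and 19203 probes. Brightness went in part with the replicate number: the 75th percentile of intensity lay between 15 and 29.8 for numbers 1 and 5, between 73.7 and 111.7 for 2 and 6, between 32.6 and 80.7 for 3 and 7, and between 42.7 and 66.9 for 4 and 8. The labels do not say what these 4 number classes are, and differences were also read within them. Summed intensities of marker lists, given below, add deposited values before normalization, so they also vary with the brightness of an array. Of other markers, DR against AL called 2 of 7 mesothelial genes higher, 2 of 3 skeletal muscle genes lower and 0 of 3 erythrocyte genes (2 at an unadjusted p under 0.05 in limma). In bulk tissue, fewer cells of a type and less RNA per cell cannot be told apart.

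In DR against AL, the alpha-class transferases Gsta3 and Gsta4 were called higher and no member was called lower. In Rapa against AL, Cyp2e1 was the only member called, and it was lower. DR against Rapa had 4 called members, with Cyp2e1, Gsta3 and Gsta4 higher and Gstm1 lower. None of Nqo1, Gclm and Hmox1 passed the limma test in any of the 3 comparisons, with unadjusted p between 0.0519 and 0.83. Against these counts stand the shares of all 9836 measured genes that were called: 11.7% in DR against AL (5.2% higher and 6.5% lower), 0.153% in Rapa against AL, all of them lower, and 11.4% in DR against Rapa (5.88% higher and 5.54% lower). Counts of called genes in the lists below are to be read against the same shares. Of the genes called in DR against AL 44.4% were higher, against 11.6% with median scaling in place of quantile normalization, and of those called in DR against Rapa 51.5%, against 39.7%. The members' median log2 fold change was 0.37 in DR against AL, 0.11 in Rapa against AL and 0.15 in DR against Rapa, against -0.0091, -0.0052 and -0.011 for all measured genes. Members and gene lists were chosen with earlier results of these data known, so their counts and medians carry no test against all genes.

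**Figure D1:**
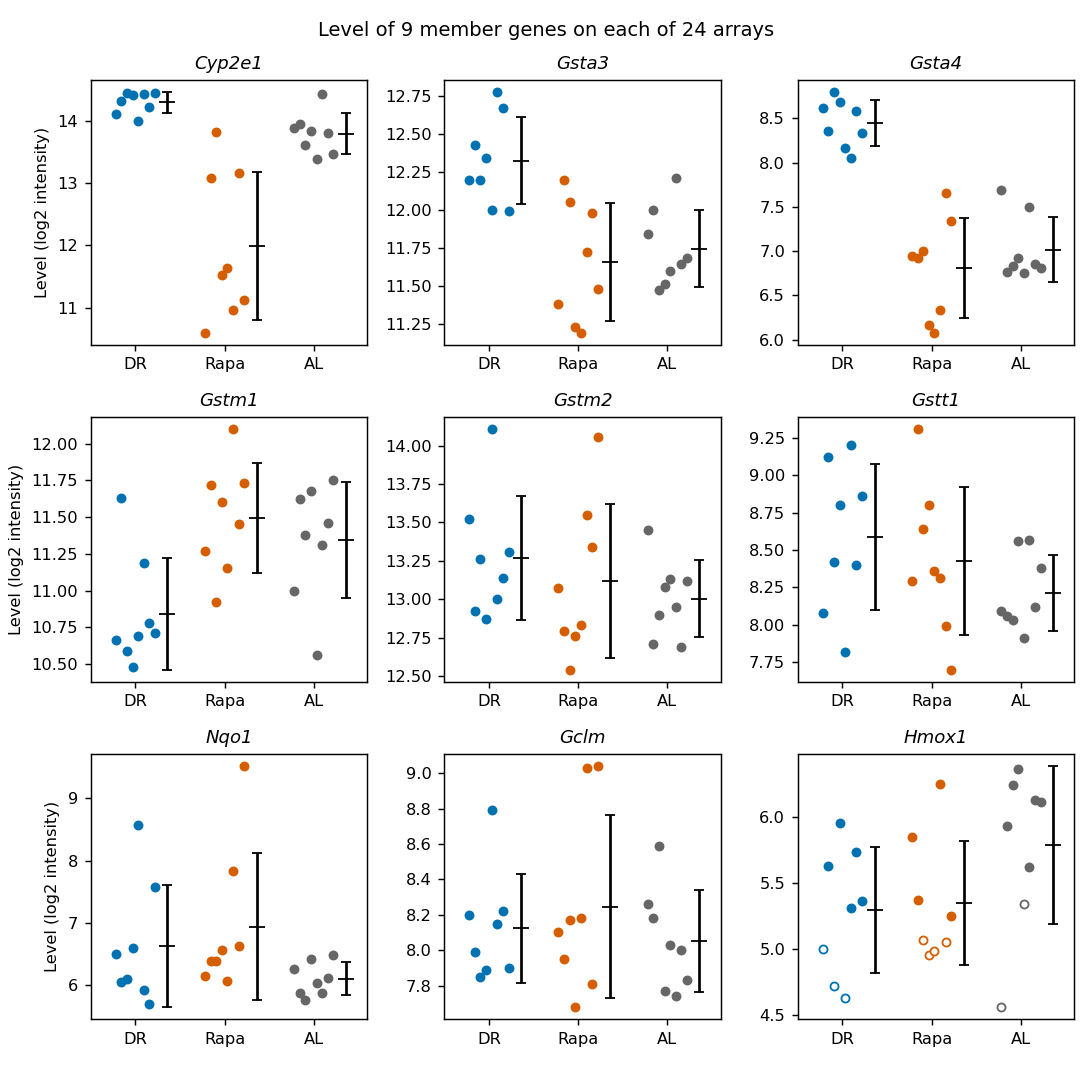
Level (log2 intensity) of the 9 measured members on each array, in panels by gene, with DR, Rapa and AL from left to right. Points are arrays, open where the probe was not detected, and black bars are the mean ± SD of 8 arrays. Cyp2e1 in Rapa spreads from 10.60 to 13.82, Gsta4 in DR lies above every Rapa and AL array, and a few Nqo1 arrays of DR and Rapa lie far above the rest.

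**Figure D2:**
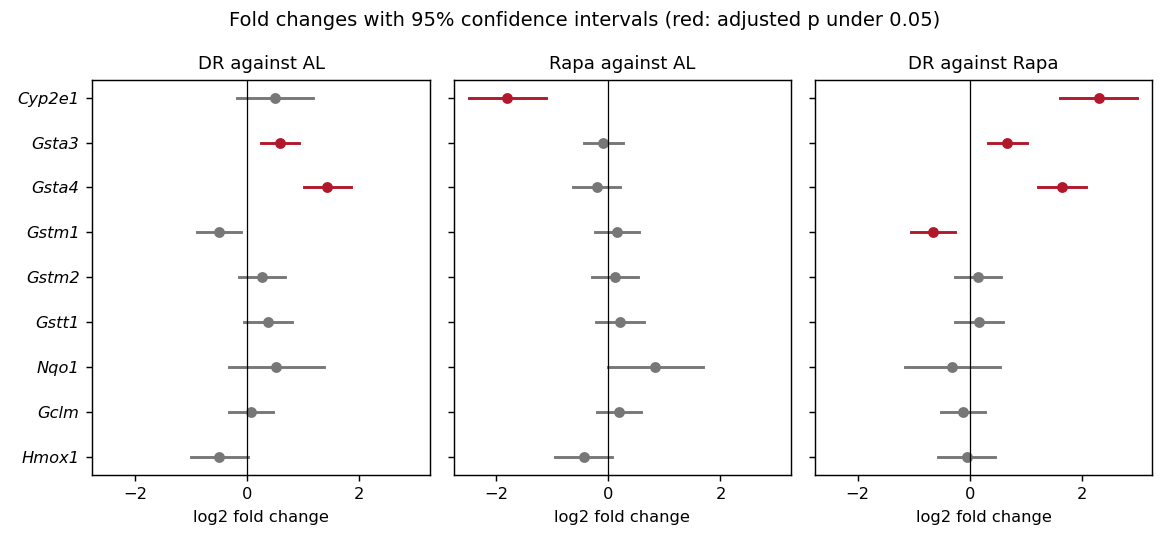
Log2 fold change of each member with its 95% confidence interval in the 3 comparisons, with called members in red. Cyp2e1 is the only called member in Rapa against AL, and Gsta3 and Gsta4 are those called in DR against AL.

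Cyp2e1 comes first, as the phase I enzyme of the set. The 120 bases before its start, shown because it is the member called in Rapa against AL (RefSeq, GRCm38.p6, chr7:140763699-140763818, plus strand), read
Cyp2e1: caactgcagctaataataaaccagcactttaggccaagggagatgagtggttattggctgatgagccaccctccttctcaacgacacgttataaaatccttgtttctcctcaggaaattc
Its level in DR ran from 13.99 over a median of 14.36 to 14.44. In Rapa it ran from 10.60 over a median of 11.58 to 13.82. In AL it ran from 13.38 over a median of 13.82 to 14.42. The DR arrays lay close together, and the Rapa arrays did not: replicates 2, 3 and 7 lay between 13.08 and 13.82, near the AL arrays, whereas the other 5 lay between 10.60 and 11.64, far below every AL array. In all, 7 of 8 Rapa arrays lay below every AL array, and all 8 DR arrays lay above every Rapa array.

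Cyp2e1 fell in Rapa, with a mean of 11.99 ± 1.19 against 13.79 ± 0.32 in AL (SD, n = 8 each). On the log2 scale the change was -1.80 ± 0.33 (SE; adjusted p = 0.0164). The 95% interval ran from -2.49 to -1.12, and the change was 3.49-fold. DR had 14.29 ± 0.17, which was 0.50 above AL with an interval from -0.19 to 1.18 (adjusted p = 0.404) and did not pass the test in the fit of all arrays. A fit of the DR and AL arrays alone, without the wide Rapa spread, gave the same 0.50 with an adjusted p of 0.0312, and the difference was between 0.18 and 0.77 in the 4 number classes. Set against Rapa, DR had higher Cyp2e1, by 2.30 ± 0.33, or 4.93-fold (adjusted p = 3.71e-05). Within the 4 number classes, Rapa against AL gave -2.51, -2.16, -0.22 and -2.33, the third being numbers 3 and 7. DR against Rapa was between 0.84 and 3.10 in every class. The fit of all arrays takes a common spread for the groups, so the SE was the same in each comparison despite the wide Rapa spread. The call in Rapa against AL was lost under 6 of 12 alternatives, with adjusted p between 0.0042 and 0.132 over all 12. Among these losses were the fit of the Rapa and AL arrays alone (-1.80, adjusted p = 0.109) and that without the 10 arrays of high marker score (-1.65, adjusted p = 0.0852). The call held in all 24 fits that left out 1 array. The call in DR against Rapa held in all 12.

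None of 15 adipocyte markers was called by limma in Rapa against AL (1 at an unadjusted p under 0.05), with a median log2 fold change of -0.21, and their summed intensity lay between 64759 and 214934 in Rapa and between 95293 and 265993 in AL. After normalization, the median level of these markers was 12.12 ± 0.71 in Rapa and 12.44 ± 0.77 in AL (SD, n = 8 each). None of the 4 kept hepatocyte markers was called either (0 at an unadjusted p under 0.05), and their list's summed intensity lay between 78.6 and 539.2 in Rapa and between 95.7 and 574.7 in AL. Of 3 kept skeletal muscle markers, Acta1, an actin, was called lower in Rapa against AL (-2.52 ± 0.42, SE, adjusted p = 0.00467), and the list's summed intensity lay between 63.2 and 548.1 in Rapa and between 289.3 and 2962 in AL. In DR against Rapa, 3 of 15 adipocyte markers were called higher (Lipe, Pnpla2 and Pparg) and Lep was called lower, with a median of 0.21. Of the 4 kept hepatocyte markers, 1 was called higher in DR against Rapa, with a median of -0.20. In DR against AL, 1 of these 4 was called higher too, with a median of -0.07. The part of these cell types in the Cyp2e1 results was not tested.

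Among the P450 partners and other phase I enzymes, 19 of 30 genes on the array were measured, and in Rapa against AL limma called none (3 at an unadjusted p under 0.05). In DR against AL 3 were higher and 1 was lower, with a median of 0.04. Cyp2f2, a P450 best known from airway cells, rose by 1.90 ± 0.43 (SE; adjusted p = 0.00425) and was detected on 8 DR arrays and 6 AL arrays. Cyp2d22, a mouse member of the drug-metabolising CYP2D family, rose by 1.20 ± 0.28 (adjusted p = 0.00562). The calls of Cyp2f2 and Cyp2d22 were lost under 1 and 2 of 12 alternatives. Fmo1, a flavin monooxygenase, rose by 0.66 ± 0.18 (adjusted p = 0.0155), although its second probe gave -0.14 (adjusted p = 0.835). Cyp4v3, a fatty acid hydroxylase, was lower in DR. It had 9.34 ± 0.34 in DR and 10.58 ± 0.25 in AL (SD, n = 8 each), with all 8 DR arrays below every AL array (log2 fold change -1.24 ± 0.17, adjusted p = 1.61e-05).

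DR against Rapa called 5 of these 19 higher and 1 lower. Cyp2d22, Fmo1 and Cyp4v3 were called again in the same directions, at 0.97, 0.91 and -1.30. Since both comparisons hold the same DR arrays, the repeat adds no independent evidence. The second Fmo1 probe gave 0.08 in DR against Rapa (adjusted p = 0.917). The Fmo1 call was lost under 3 of 12 alternatives in DR against AL and also in DR against Rapa. Ephx2, the soluble epoxide hydrolase, was higher by 1.08 ± 0.28 (SE; adjusted p = 0.0107), and Cyp4f13 was higher by 0.42 ± 0.12 (adjusted p = 0.0304), with all 8 DR arrays above every Rapa array. The Ephx2 call was lost under 2 of 12 alternatives. The DR against Rapa calls of Cyp2d22 and Cyp4f13 were each lost under 4 of 12 alternatives (adjusted p up to 0.933 and 0.806) and in 4 of 24 fits that left out 1 array, namely DR replicates 7 and 8 and Rapa replicates 6 and 8 for Cyp2d22, and DR replicates 1 and 3 and Rapa replicates 1 and 7 for Cyp4f13.

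The alpha-class transferases Gsta3 and Gsta4 were the members called higher in DR. Gsta4 encodes the form that conjugates 4-hydroxynonenal, an aldehyde from lipid peroxidation. In DR it ran from 8.05 over a median of 8.47 to 8.80, in Rapa from 6.08 over 6.93 to 7.66, and in AL from 6.75 over 6.85 to 7.69. All 8 DR arrays lay above every Rapa array and every AL array, while the Rapa and AL arrays overlapped, with 3 of 8 Rapa arrays below every AL array. The mean was 8.45 ± 0.26 in DR and 7.02 ± 0.37 in AL (SD, n = 8 each), a rise of 1.43 ± 0.21 (SE), or 2.70-fold (adjusted p = 3.08e-05). Rapa had 6.81 ± 0.57, with a change from AL of -0.21 and an interval from -0.63 to 0.21 (adjusted p = 0.786). DR against Rapa gave 1.64 ± 0.21, or 3.13-fold (adjusted p = 4.55e-06).

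The Gsta4 difference held within each number class, between 1.08 and 1.84 for DR against AL. It was as called without the 10 arrays of high marker score (1.29, adjusted p = 0.0193), on 2 DR and 7 AL arrays. Median scaling in place of quantile normalization gave 1.08 with an adjusted p of 0.052, and that scaling shifted the median of all genes by -0.28, so that relative to it Gsta4 changed by 1.36.

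Gsta3, an alpha-class transferase that also isomerises steroid precursors, has a copy of the core of the antioxidant response element before its start. The core was searched as TGACNNNGC, where N is any base, and as its reverse complement GCNNNGTCA, in the 250 bases before to 50 after each start. Of the 10 members, 7 are in the promoter table, and matches were found in Gsta3 and Gclm. Cyp2e1, Gstm1, Gstm2, Gstt1 and Nqo1 had none in this window, and 12.4% of all 32851 promoter windows hold 1 or more. The stretches below show the matching letters in capitals with their flanks (RefSeq, GRCm38.p6, chr1:21240438-21240498, plus strand, and chr3:122245397-122245457, plus strand), with the match beginning 121 bases before the start of Gsta3 and 134 before that of Gclm, where it reads on the opposite strand. A match is a description of letters and not a shown binding site.
Gsta3: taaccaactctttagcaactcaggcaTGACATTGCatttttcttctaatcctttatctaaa
Gclm: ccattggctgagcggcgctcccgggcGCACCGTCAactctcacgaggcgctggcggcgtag

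Gsta3 ran from 11.99 over a median of 12.27 to 12.78 in DR, from 11.19 over 11.60 to 12.20 in Rapa, and from 11.47 over 11.66 to 12.21 in AL. The DR arrays tended high, and 4 of them lay above every AL array and 5 above every Rapa array, but the groups overlapped. DR averaged 12.33 ± 0.29 and AL 11.74 ± 0.26 (SD, n = 8 each), a rise of 0.58 ± 0.17 (SE; adjusted p = 0.0218). The change from AL in Rapa was -0.09, with an interval from -0.43 to 0.25 (adjusted p = 0.908). DR against Rapa gave 0.67 ± 0.17 (adjusted p = 0.00818), a call lost under 2 of 12 alternatives. These were median scaling (0.64, adjusted p = 0.553) and leaving out the 10 arrays of high marker score (1.00, adjusted p = 0.0657). A second Gsta3 probe was dim and detected on 7 DR, 5 Rapa and 7 AL arrays. It gave 0.48 in DR against AL (adjusted p = 0.392) and 0.64 in DR against Rapa (adjusted p = 0.231). The call in DR against AL was lost without the 10 arrays of high marker score (0.88, adjusted p = 0.139), with median scaling (0.28, adjusted p = 0.68; 0.56 relative to the shift of all genes) and when both probes were averaged (0.53, adjusted p = 0.118). It was kept when the fit held the marker score as covariate (0.68, adjusted p = 0.0461).

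**Figure D3:**
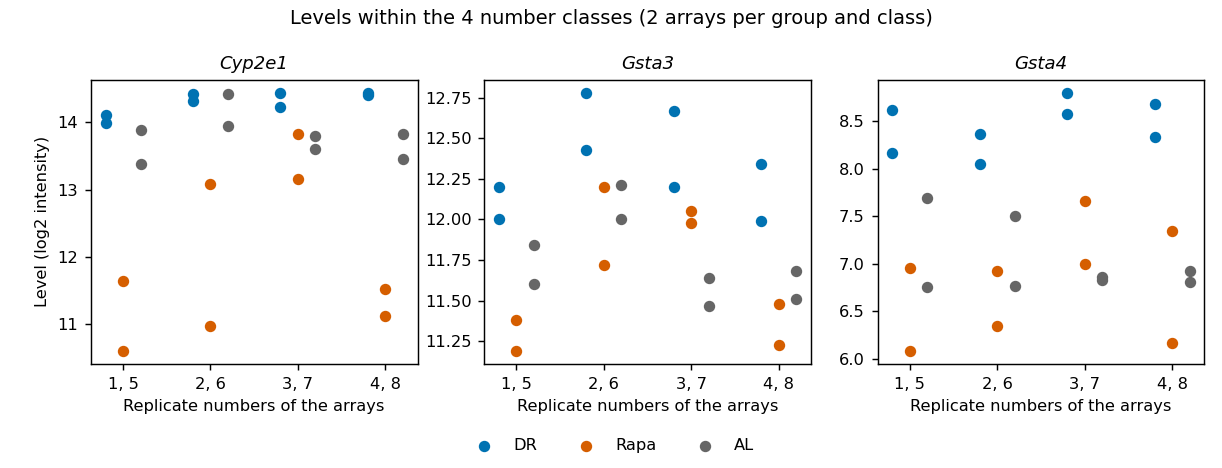
Level (log2 intensity) of Cyp2e1, Gsta3 and Gsta4 on the arrays of each number class, that is replicate numbers 1 and 5, 2 and 6, 3 and 7, and 4 and 8, with 2 arrays for each group and class. Rapa arrays of Cyp2e1 lie near AL in the class of numbers 3 and 7, whereas Gsta4 in DR is above AL in all 4 classes.

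Adipocyte and epididymal markers were read beside these rises. Of 15 adipocyte markers, only Lep was called in DR against AL, and it was lower. In limma 6 of the 15 had an unadjusted p under 0.05, and their median log2 fold change was -0.03. Of 11 epididymis and testis markers, 5 were called higher in DR against AL, and their list's summed intensity lay between 745 and 16400 in DR and between 64.3 and 11436 in AL. The part of these markers in the Gsta3 and Gsta4 results was not tested beyond the fits given above.

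The mu-class transferases showed a different picture. Gstm1, a broad conjugating enzyme, ran from 10.48 over a median of 10.70 to 11.63 in DR, from 10.92 over 11.53 to 12.10 in Rapa, and from 10.56 over 11.42 to 11.75 in AL. Most DR arrays lay low, but replicate 2 of DR stood at 11.63 and replicate 5 of AL at 10.56, so that the groups overlapped. DR averaged 10.84 ± 0.38, Rapa 11.49 ± 0.38 and AL 11.34 ± 0.40 (SD, n = 8 each). The difference was -0.50 ± 0.19 in DR against AL (SE; adjusted p = 0.0995), which did not pass although it was below 0 in all 4 number classes (-0.11, -0.05, -0.74 and -1.12), and 0.15 ± 0.19 in Rapa against AL (adjusted p = 0.848).

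Gstm1 was lower in DR against Rapa, at -0.65 ± 0.19 (SE; adjusted p = 0.0282), with 6 of 8 DR arrays below every Rapa array. The call lay near the threshold: it was lost in 6 of 24 fits that left out 1 array (DR replicates 1, 3, 4 and 8, and Rapa replicates 2 and 6), with differences between -0.63 and -0.56 and adjusted p between 0.0508 and 0.0668. Within the number classes the difference lay between -1.07 and -0.50. Without the 10 arrays of high marker score the difference turned to 0.08 (adjusted p = 0.899). The call was also lost with median scaling (-0.72, adjusted p = 0.553) and with no filter on dim probes (-0.65, adjusted p = 0.0542). Of 17 macrophage markers, 8 were called in DR against Rapa, all lower, with a median of -0.63, and the list's summed intensity lay between 6767 and 26512 in DR and between 14326 and 69999 in Rapa. The part of these cells in the Gstm1 result was not tested.

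Gstm2 has 3 kept probes, which followed each other over the 24 arrays (r between 0.63 and 0.86 after group means were removed, a description). The brightest ran from 12.87 over a median of 13.20 to 14.11 in DR, from 12.54 over 12.95 to 14.06 in Rapa, and from 12.69 over 13.01 to 13.45 in AL. It gave 0.26 ± 0.20 in DR against AL (SE; adjusted p = 0.47), 0.11 in Rapa against AL (adjusted p = 0.898) and 0.15 in DR against Rapa (adjusted p = 0.737). The other probes gave 0.18 and 0.14 in DR against AL, and none was called. Gstm2 and Gstm1 are neighbours, and RefSeq (GRCm38.p6) places them on chromosome 3 in the order Gstm5, Gstm7, Gstm6, Gstm3, Gstm2, Gstm1, Gstm4. None of the 6 measured genes of this row passed the test in DR against AL, at 0.19, 1.42, 0.66, 0.26, -0.50 and -0.26 in that order without Gstm3, whose probe was not kept. These genes resemble each other, and whether a probe also binds the RNA of a neighbour was not tested, since probe sequences were not used here.

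Gstm7, another mu-class gene, was uneven over the arrays. It stood between 9.57 and 12.28 on 6 arrays (replicates 5 and 8 of DR, 6, 7 and 8 of Rapa, and 1 of AL) and no higher than 7.59 on the other arrays, and the marker score of epididymis and testis was above 6 on all 6. On the other 4 arrays with a score above 6, replicates 1, 3, 4 and 7 of DR, Gstm7 stood at 6.98, 7.59, 6.81 and 5.79.

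Gstt1, a theta-class transferase, ran from 7.82 over a median of 8.61 to 9.20 in DR, from 7.70 over 8.33 to 9.31 in Rapa, and from 7.91 over 8.11 to 8.57 in AL. DR and Rapa spread more widely than AL, and 4 of 8 DR arrays lay above every AL array while 1 lay below. It gave 0.37 ± 0.21 in DR against AL (SE; adjusted p = 0.301; interval from -0.06 to 0.80), 0.21 in Rapa against AL (adjusted p = 0.79) and 0.16 in DR against Rapa (adjusted p = 0.728). When the marker score entered the fit as a covariate, DR against AL gave 0.87 (adjusted p = 0.00876). Of its neighbours on chromosome 10, Gstt2 was called in DR against AL at 1.38 ± 0.28 (adjusted p = 0.00137), and Ddt, Gstt3, Gstt4 and Mif were not, at 0.22, 0.33, 0.36 and 0.30. A second Gstt2 probe gave 0.35 in DR against AL (adjusted p = 0.458) and 1.07 in DR against Rapa (adjusted p = 0.00617). The Gstt2 call in DR against AL was lost under 2 of 12 alternatives (adjusted p up to 0.172).

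**Figure D4:**
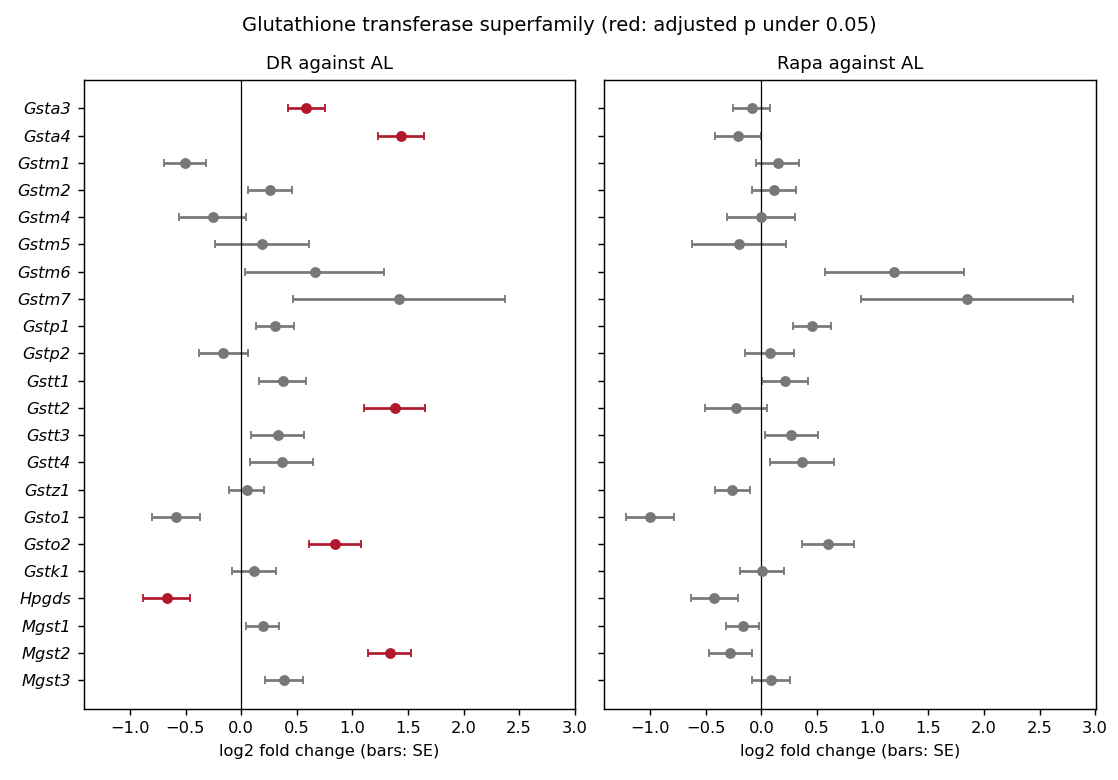
Log2 fold change with SE of the 22 measured glutathione transferases and related genes in DR against AL and Rapa against AL, with called genes in red. In DR, 5 genes are called higher and 1 lower, and in Rapa none is called.

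Over the whole glutathione transferase superfamily, 22 genes were measured. In DR against AL 5 rose and 1 fell (median 0.32), in Rapa against AL limma called 0 (median 0.04; 3 at an unadjusted p under 0.05), and in DR against Rapa 4 were higher and 1 was lower (median 0.16). Without the 5 members, 3 of 17 rose and 1 fell in DR against AL. Mgst2, a microsomal transferase of leukotriene and peroxide metabolism, had 10.38 ± 0.26 in DR and 9.04 ± 0.25 in AL (SD, n = 8 each), with all 8 DR arrays above every AL array (1.33 ± 0.19, adjusted p = 3.5e-05). It was also higher in DR against Rapa by 1.62 ± 0.19 (adjusted p = 2.54e-06). The Mgst2 call in DR against AL was lost under 1 of 12 alternatives, median scaling (0.99, adjusted p = 0.0921). Gsto2, an omega-class enzyme that reduces dehydroascorbate, rose by 0.84 ± 0.23 in DR against AL (adjusted p = 0.019), while its second probe gave -0.18 (adjusted p = 0.695), and the call was lost under 4 of 12 alternatives.

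Hpgds, the haematopoietic prostaglandin D synthase found in mast cells and macrophages, was detected on no DR array and on 6 AL arrays and was at least 1.06-fold lower in DR (adjusted p = 0.0411). That call was lost in 7 of 11 alternatives. Of 17 macrophage markers, 1 was called higher and 6 lower in DR against AL, with a median of -0.48, and limma called none in Rapa against AL (1 at an unadjusted p under 0.05). Their summed intensity lay between 6767 and 26512 in DR and between 15300 and 57970 in AL. The part of these cells in the Hpgds result was not tested.

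The classical NRF2 target Nqo1, which encodes NAD(P)H quinone reductase, passed no test between groups but stood high on a few arrays. The 120 bases before its start, shown as the promoter of the gene whose few high arrays are followed below (RefSeq, GRCm38.p6, chr8:107403206-107403325, minus strand), read
Nqo1: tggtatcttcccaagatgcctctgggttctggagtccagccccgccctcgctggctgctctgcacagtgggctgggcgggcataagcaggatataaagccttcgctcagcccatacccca
Nqo1 ran from 5.70 over a median of 6.30 to 8.58 in DR, from 6.06 over 6.47 to 9.52 in Rapa, and from 5.76 over 6.08 to 6.48 in AL. Replicates 5 and 8 of DR, at 8.58 and 7.58, and replicates 6 and 8 of Rapa, at 7.84 and 9.52, stood high, and the other 20 arrays lay at or below 6.63. A second Nqo1 probe was detected on no array.

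The differences were 0.53 ± 0.41 in DR against AL (SE; adjusted p = 0.489), 0.84 ± 0.41 in Rapa against AL (adjusted p = 0.537) and -0.31 ± 0.41 in DR against Rapa (adjusted p = 0.735), none of them called. Without the 10 arrays of high marker score, DR against AL gave -0.10 (adjusted p = 0.899), Rapa against AL 0.23 (adjusted p = 0.492) and DR against Rapa -0.32 (adjusted p = 0.432). With the score as a covariate they gave -0.52 (adjusted p = 0.524), 0.40 (adjusted p = 0.836) and -0.92 (adjusted p = 0.0787). The marker score of epididymis and testis was 9.90, 8.55, 9.04 and 11.09 on the 4 high arrays. It was also above 6 on 6 other arrays, among them replicates 1, 3 and 7 of DR, at 10.92, 10.21 and 8.65, where Nqo1 stood at 6.50, 6.10 and 5.70. The part of epididymal RNA in the Nqo1 levels was not tested beyond the fits given above.

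By likeness, the 3 genes whose deviations from group means followed Nqo1 most closely over the 24 arrays were Fbxo10 (r = 0.94), Ap3b2 (r = 0.93) and Defb26 (r = 0.93). Since the arrays form a high and a low cluster, these values describe 4 arrays against the rest. Defb26, a beta-defensin gene, stood at 10.71 and 8.38 on replicates 5 and 8 of DR and at 9.73 and 11.07 on replicates 6 and 8 of Rapa, and at or below 5.94 elsewhere.

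**Figure D5:**
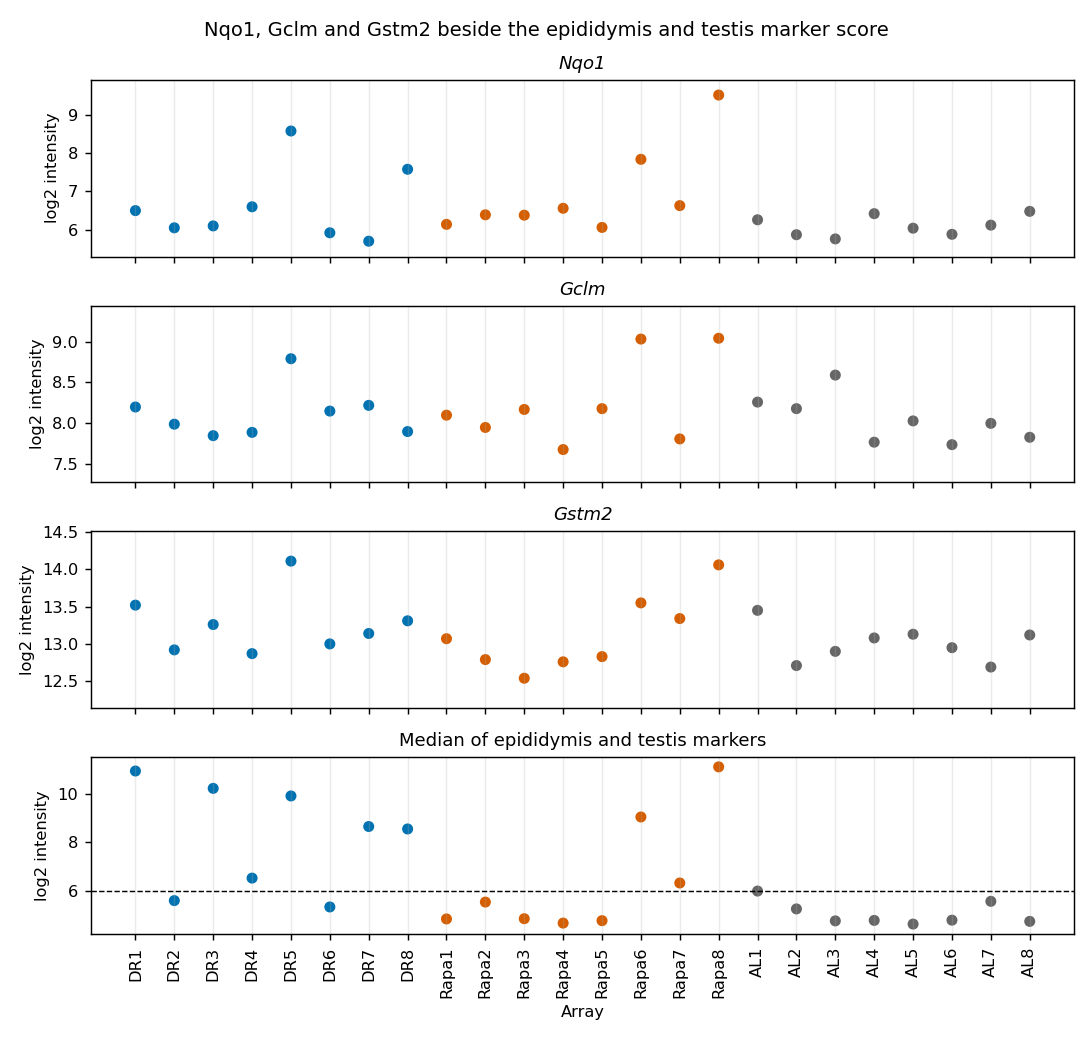
Level (log2 intensity) of Nqo1, Gclm and Gstm2, and the epididymis and testis marker score, on each array, ordered DR, Rapa and AL, with a dashed line at a score of 6. Nqo1 is high on 4 arrays, all with a score above 6, while the other 6 arrays with a score above 6 have Nqo1 between 5.70 and 6.63.

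Glutathione synthesis was represented by Gclm, and Gclc was not measurable. Gclc was detected on 0 DR, 1 Rapa and 1 AL array. Gclm ran from 7.85 over a median of 8.07 to 8.79 in DR, from 7.68 over 8.14 to 9.04 in Rapa, and from 7.74 over 8.02 to 8.59 in AL. The groups overlapped almost wholly, and replicate 5 of DR and replicates 6 and 8 of Rapa stood highest, as in Nqo1. The differences were 0.07 ± 0.19 in DR against AL (SE; adjusted p = 0.877; interval from -0.32 to 0.47), 0.19 ± 0.19 in Rapa against AL (adjusted p = 0.79) and -0.12 ± 0.19 in DR against Rapa (adjusted p = 0.789).

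Of 20 measured genes of glutathione synthesis, recycling and breakdown, 1 was higher and 1 lower in DR against AL, and limma called none in Rapa against AL (0 at an unadjusted p under 0.05). Chac1, which breaks glutathione down to 5-oxoproline inside the cell and is known as a target of the ATF4 stress response, had 10.08 ± 0.68 in DR and 8.07 ± 0.35 in AL (SD, n = 8 each). All 8 DR arrays lay above every AL array, a rise of 2.02 ± 0.27 (SE; adjusted p = 1.33e-05), and it was higher in DR against Rapa by 1.97 ± 0.27 (adjusted p = 2e-05). Slc3a2, the heavy chain of the cystine and amino acid exchangers, fell by 0.77 ± 0.18 in DR against AL (adjusted p = 0.0051), at a level near background, with detection on 1 DR array and 8 AL arrays. The Slc3a2 call was lost under 2 of 12 alternatives (adjusted p up to 0.506). Against Rapa, Oplah, which recycles 5-oxoproline to glutamate, was higher in DR by 0.74 ± 0.20 (adjusted p = 0.0135). Anpep, an aminopeptidase, was lower in DR against Rapa, at -0.88 ± 0.25 (adjusted p = 0.0221), a call lost under 4 of 12 alternatives and without Rapa replicate 6. The Oplah call was lost under 3 of 12.

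Hmox1, the stress-induced haem oxygenase, was near the detection limit, with 5 DR, 4 Rapa and 6 AL arrays detected. It ran from 4.63 over a median of 5.34 to 5.95 in DR, from 4.95 over 5.16 to 6.25 in Rapa, and from 4.56 over 6.02 to 6.36 in AL. No group stood clear of another. The differences were -0.49 ± 0.25 in DR against AL (SE; adjusted p = 0.231), -0.44 ± 0.25 in Rapa against AL (adjusted p = 0.594) and -0.05 ± 0.25 in DR against Rapa (adjusted p = 0.936). Among 14 measured genes of haem breakdown and iron handling, Blvra, the biliverdin reductase that follows haem oxygenase, was the only one called in DR against AL, and it was lower, at -0.48 ± 0.15 (adjusted p = 0.0365), a call lost in 12 of 24 fits that left out 1 array. In Rapa against AL limma called none of the 14 (1 at an unadjusted p under 0.05). Only Trf, transferrin, was called in DR against Rapa, at 0.57 ± 0.17 (adjusted p = 0.0321), a call lost in 8 of 24 such fits.

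Among 28 measured NRF2 targets, 4 were higher and 1 was lower in DR against AL, with a median of -0.01, and limma called none in Rapa against AL (2 at an unadjusted p under 0.05). In DR against Rapa 5 were higher and 2 were lower. Taldo1, transaldolase of the pentose phosphate pathway, rose by 0.46 ± 0.12 in DR against AL (SE; adjusted p = 0.00879), and Me1, malic enzyme, rose by 0.92 ± 0.27 (adjusted p = 0.0241). Me1 also supplies NADPH for fatty acid synthesis. Of 12 alternatives, 2 lost the Taldo1 call, among them median scaling (0.16, adjusted p = 0.754), and 3 lost that of Me1, which was also lost without DR replicate 2, DR replicate 6 or AL replicate 5. Osgin1, an oxidative stress growth inhibitor, fell by 1.29 ± 0.21 (adjusted p = 1.88e-04). The other called genes of the list were members, Gsta3 and Gsta4.

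In DR against Rapa, Taldo1 was higher by 0.81 ± 0.12 (adjusted p = 2.86e-05) and Me1 by 1.51 ± 0.27 (adjusted p = 3.25e-04), and Osgin1 was lower, at -1.09 ± 0.21 (adjusted p = 0.00103). These calls were lost under 2, 1 and 1 of 12 alternatives, in that order. Tkt, transketolase, was higher by 1.49 ± 0.35 (adjusted p = 0.00595), and its other probes gave 1.57 and 1.32. In DR against AL the brightest Tkt probe gave 1.04 (adjusted p = 0.0597), whereas the other probes gave 1.56 and 1.28, both called. None of 11 measured NRF2 regulators was called by limma in any comparison, with 2, 0 and 1 at an unadjusted p under 0.05 in DR against AL, Rapa against AL and DR against Rapa. Nfe2l2, which encodes NRF2, gave 0.24 ± 0.21 in DR against AL (adjusted p = 0.551), and Keap1, its inhibitor, gave -0.16 ± 0.14 (adjusted p = 0.537).

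Members were also set against each other over the 24 arrays after group means were removed, in 36 pairs, with p from 100000 permutations within groups and adjusted over the 36. The permutations leave out the likeness of arrays of 1 number class, for which r within classes is given. Cyp2e1 and Gsta3 moved together (r = 0.64, adjusted p = 0.0474; rho = 0.63, adjusted p = 0.0463), and without the 2 arrays farthest from the median of Cyp2e1 r was 0.61. Within groups r was 0.26 in DR, 0.78 in Rapa and 0.79 in AL, and within number classes it lay between 0.11 and 0.85. Gstm2 and Gstt1 moved in opposite directions (r = -0.69, adjusted p = 0.0128; rho = -0.64, adjusted p = 0.0463), with -0.51 left without replicate 5 of DR and replicate 8 of Rapa. Within groups r was -0.84 in DR, -0.77 in Rapa and 0.06 in AL, and within number classes it lay between -0.97 and -0.58. Gstm2 with Gclm, at 0.63 (adjusted p = 0.0474), fell to 0.34 without those same arrays, and its rho of 0.41 did not pass (adjusted p = 0.361), with r within number classes between -0.29 and 0.93. Gstt1 with Gclm gave r = -0.58 (adjusted p = 0.0474) and rho = -0.55 (adjusted p = 0.0611), with r within number classes between -0.98 and 0.22. Pairs with Nqo1 were among the 36, but no pooled r is given for them, since its arrays form separate clusters.

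The 3 genes most like each other member were named by the same measure, r over the 24 arrays after group means were removed, which describes these arrays and carries no test. Cyp2e1 was most like Fbxo45 (0.79), Gtdc1 (0.78) and Cebpd (0.76), of which Cebpd encodes a transcription factor of early fat cell differentiation. Gsta3 was most like Prodh, Asns and Acvrl1 (0.75 each), where Prodh starts proline breakdown and Asns makes asparagine. Gsta4 was most like Morn4 (0.84), Angpt4 (0.78) and Dzip1l (0.75). Gstm1 was most like Paip2b (0.83), Stxbp5 (0.82) and Tmem44 (0.80), and Gstm2 was most like Pnkd (0.91), Fpgs (0.91) and Ldhd (0.90). Gstt1 was most like Tspo (0.90), a mitochondrial membrane protein that binds cholesterol, Txlng (0.83) and Dgat1 (0.83), which makes triglyceride. Gclm was most like Neu1 (0.82), Abcc3 (0.82) and Aspg (0.81), for which rho was 0.57, 0.78 and 0.64. Hmox1 was most like Sdc3 (0.82), Mia3 (0.78) and Mvp (0.74).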

How the data were processed

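Per the labels, total RNA was made into biotinylated cRNA and hybridised to Illumina mouse arrays. Per the file headers, the deposited non-normalized table gives an intensity and a detection p-value for each of 45281 probes on 24 arrays. Between 26.7% and 34.3% of an array's intensity values lie below 0, so background had been subtracted before deposit; the scanner software is not given in the sources used here. A further deposited table holds the authors' score, whose values follow a z-score within each array of log(intensity + constant), with column medians between -0.42 and -0.32; the log base stays unknown, and it served only as an alternative.

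The intensity table was analysed with limma 3.58.1 under R 4.3.3: neqc (offset 16, background from detection p, quantile normalization, log2), a filter of detection p under 0.05 on at least 8 arrays (17165 probes, 9836 genes), and 1 fit of the 3 group means (21 residual degrees of freedom) with two-sided moderated tests. Symbols came from the platform annotation (34885 probes with 1 symbol, 18 with several, 10378 not listed). A gene undetected in a whole group is given as at least a fold, against the lowest detected signal of each of its arrays or its own value where higher. The number of arrays limits the precision. The alternatives were other scalings, filters, probes, array weights, array sets, covariates and blocks, and leaving out each array.

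The members and gene lists were chosen with earlier results of these data known. Named genes are the 10 members, up to 4 genes called higher and 4 called lower per pathway list and comparison, and the 3 genes most like each member. Nfe2l2, Keap1, Gstm5 to Gstm7, Gstm4, Gsto1 and the neighbours of Gstt1 and the marker genes, Acta1 included, were named outside this rule, after their values were seen.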

Additional observations from a re-analysis of the deposited data

Results flagged for a closer look

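Of 27 groups of 8 arrays, 1 for each measured member and treatment group, 1 held an array far from the others by Dixon's test, and chance flags about 1 in 20. It was Gclm in DR, where replicate 5 stood at 8.79 (log2 intensity) and the nearest array at 8.22, a gap of 0.603 of the group's range and beyond the test's 95% limit for 8 arrays. Replicate 5 of DR also had the highest Nqo1 and Gstm2 of its group, at 8.58 and 14.11, and a marker score of epididymis and testis of 9.90. The part of epididymal RNA in the Gclm value was not tested.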

How the results depend on the processing

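The number of members called was 2 in DR against AL, 1 in Rapa against AL and 4 in DR against Rapa. In DR against AL it was 0 with median scaling and 1 without the 10 arrays of high marker score or with a gene's probes averaged, and 3 with only the 2 groups compared (Cyp2e1 added, adjusted p = 0.0312), with that score taken as covariate (Gstt1 added, 0.00876) and with array weights (Gstm1 added). In Rapa against AL it was 0 with median scaling, the authors' score, no filter on dim probes, only the 2 groups compared, those 10 arrays left out, or the marker score as a covariate. In DR against Rapa it was 2 with median scaling and 2 without the 10 arrays (Gsta3 and Gstm1 lost in each), and 3 with no filter on dim probes (Gstm1 lost). Leaving out 1 array gave 2 to 3, 1 to 1 and 3 to 4. The causes were not tested, except that leaving out 10 arrays leaves 2 of DR. Calls over all genes numbered 1150 in DR against AL, and 576 with median scaling, 249 without the 10 arrays, 700 with the covariate and 1804 with array weights; 44.4% of them were higher, against 11.6% with median scaling and 35.8% with the authors' score. In Rapa against AL they numbered 15, and 3 with median scaling, 8 without the filter, 47 without the 10 arrays, 10 with the covariate, 48 with array weights and 29 with probes averaged. In DR against Rapa they numbered 1123, and 282 with median scaling and 459 without the 10 arrays, with 51.5% higher against 39.7% with median scaling.

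Same-numbered arrays deviated together in 19 of 24 pairs (r over 0.1; mean 0.24, from -0.07 to 0.55), 9 of 24 arrays matched their own number best and 18 of 24 their own number class, so the numbers were not taken to pair the samples. With the replicate number as a block, 3, 1 and 4 members and 1886, 121 and 1765 genes were called. With the number class as a block, an alternative chosen after seeing the data, 3, 1 and 4 members and 1953, 154 and 1887 genes were called. The added member was Gstm1 in DR against AL (-0.50, adjusted p = 0.0266 and 0.0175), also called with array weights (-0.54, adjusted p = 0.0316), without AL replicate 5 (-0.62, 0.0301) and without DR replicate 2 (-0.62, 0.0303).

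The labels and headers name no batch, so a block of that kind was not run. Only 1 member call changed sign, Gstm1 in DR against Rapa, 0.08 without the 10 arrays. Uncalled values that changed sign were these. With median scaling, Gclm gave -0.30 in DR against AL, and Gstm1, Gstm2, Gstt1 and Gclm gave -0.13, -0.16, -0.06 and -0.08 in Rapa against AL. Without the 10 arrays, Gstm1 and Nqo1 gave 0.02 and -0.10 in DR against AL, Gstm1, Gstm2 and Gclm gave -0.06, -0.14 and -0.01 in Rapa against AL, and Gclm and Hmox1 gave 0.06 and 0.23 in DR against Rapa. With the covariate, Gstm2, Nqo1 and Gclm gave -0.26, -0.52 and -0.32 in DR against AL, Gstm2 gave -0.11 in Rapa against AL, and Gstm2 and Hmox1 gave -0.15 and 0.02 in DR against Rapa. Gclm in DR against AL gave -0.05 with the authors' score, -0.01 with array weights and -0.02 without DR replicate 5 (leaving out each array in turn, up to 0.15). Hmox1 in DR against Rapa gave 0.11 with array weights and 0.03, 0.04, 0.02 and 0.08 without DR replicates 3 and 5 and Rapa replicates 1 and 6 (down to -0.15 without other arrays). Without Rapa replicate 8, Gstm2 in Rapa against AL gave -0.02 (up to 0.20 without other arrays) and Nqo1 in DR against Rapa gave 0.06 (down to -0.59). Hmox1 and Gclc lay near background, where the arrays could not show small differences.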
